A study of Homo sapiens with 2 samples.

Results

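The BCL2 family of apoptosis regulators was followed across 2 RNA-seq libraries of HAL-01, a human cell line labelled as pre-B acute lymphoblastic leukemia. The 13 members were chosen by gene name: the anti-apoptotic genes BCL2, MCL1, BCL2L1 and BCL2A1, the pore-forming genes BAX and BAK1, and the BH3-only genes BCL2L11, BID, BAD, PMAIP1, BBC3, BMF and BIK. They were looked up by Ensembl identifier among 16145 genes with a value in either library. Of the 13, 7 had a value in both libraries, 2 (BCL2A1 and BBC3) had a value in AG only, and 4 (BCL2L1, BAK1, BCL2L11 and BIK) were not analysed here. One library came from a culture labelled Control, whose handling the sources used here do not state. The other came from a culture labelled AG, which per the series design received 0.8 mM 1,5-AG (1,5-anhydroglucitol, a sugar alcohol close to glucose in structure) for 24 h. There was 1 library per group. No difference below therefore has a replicate check, no test between the conditions was possible, and a difference between the cultures cannot be told apart from an effect of 1,5-AG.

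The family controls the mitochondrial route to cell death. BAX and BAK1 form pores in the outer mitochondrial membrane, through which cytochrome c escapes and starts the caspase cascade. BCL2, MCL1 and their relatives hold the pore formers and the BH3-only proteins in check, and the BH3-only proteins either bind these guardians or act on BAX and BAK1 directly. In leukaemia cells the guardian a cell relies on is known to differ between lineages, and BCL2 and MCL1 are both targets of drugs that mimic the BH3 segment.

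Values are FPKM (fragments per kilobase of gene, scaled to the library total) as the authors deposited them, so levels of different genes are per length. The steps between low values implied 16240451 fragments for Control and 14857372 for AG, and whole fragment numbers were recovered for the genes given with an interval. A 95% interval beside a level is an exact Poisson interval, and one beside a ratio of AG to Control is an exact Clopper-Pearson interval. Both hold only the error of counting and nothing of the variation from culture to culture. Change is also given as a log2 ratio, log2((AG FPKM + 1)/(Control FPKM + 1)), whose pseudocount of 1 FPKM understates the change of low genes. A gene counted as higher or lower from 1.5-fold on that scale, among the expressed genes, those whose mean over the libraries reached 1 FPKM.

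The lineage markers did not follow the cell type label. Of 14 B lineage markers, 5 had a value in both libraries, and the listed values of all 14 summed to 2.88 and 3.28 FPKM. Of 14 granulocyte and monocyte markers 7 had values, all expressed, and they summed to 952 and 497 FPKM. The lower sum in AG came from CTSG, a granule protease, which had 743 and 194 FPKM. Of the 7 markers 4 had a log2 ratio above 0 and 3 below 0. Those above 0 were ITGAM, a mature myeloid integrin chain (1.55 and 8.29 FPKM), S100A9 (66.3 and 131), LYZ (75.6 and 104) and CD33 (12.9 and 15.9). ELANE (47.6 and 41.8) and MPO (4.75 and 1.70) were below 0, as was CTSG. The T and NK cell list had a value for NKG7 alone, at 17.2 and 10.3 FPKM, and the erythroid list for HBB alone, at 0.0472 in Control. Any part of these markers' differences in the family's values was not tested. In bulk RNA, fewer cells of a type and less RNA per cell cannot be told apart.

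Promoter windows show the regulatory sequence of the member that differed most, BCL2, beside that of its binding partner BAX. In RefSeq (GRCh38.p14) a window of 300 bases around the gene start was matched for 11 of the 13 members, all but MCL1 and BIK. The window of BCL2 is chr18:63319720-63320019 on the minus strand and that of BAX is chr19:48954625-48954924 on the plus strand. Both are printed 5′ to 3′, in lower case, with matches of the E-box CACGTG, the letters MYC binds, in capitals.
BCL2: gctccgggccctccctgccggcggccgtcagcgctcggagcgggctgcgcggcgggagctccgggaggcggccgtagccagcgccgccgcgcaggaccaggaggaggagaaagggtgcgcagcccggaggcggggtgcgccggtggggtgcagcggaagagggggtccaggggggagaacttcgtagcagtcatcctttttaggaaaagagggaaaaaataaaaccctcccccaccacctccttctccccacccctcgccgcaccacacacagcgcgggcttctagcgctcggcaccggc
BAX: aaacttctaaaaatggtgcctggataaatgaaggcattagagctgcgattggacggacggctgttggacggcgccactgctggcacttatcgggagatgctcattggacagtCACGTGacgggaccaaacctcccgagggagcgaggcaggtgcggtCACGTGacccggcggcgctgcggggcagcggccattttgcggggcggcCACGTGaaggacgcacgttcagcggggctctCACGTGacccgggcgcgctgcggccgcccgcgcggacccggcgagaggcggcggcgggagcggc
The BAX window held 4 E-boxes and the BCL2 window held 0, where 7.26% of 35116 RefSeq promoter windows of this length held at least 1. Some windows of BID and the window of BBC3 also held an E-box, and those of the remaining members with a window did not. MCL1 and BIK had no window and were not searched. A link between MYC and the level of any member was not tested. MYC itself had 48.5 FPKM in Control against 36.8 in AG, a log2 ratio of -0.39. The other motifs searched, on both strands, were AACNG for MYB, TTGCNNAA for CEBPB and GTAAACA for FOXO factors, which 77.2%, 10.5% and 3.42% of the windows held. The BCL2 window held 0 matches of each, and the BAX window held 1 of AACNG and 0 of the others. CACGTG and its reverse complement are the same letters and were counted once. A match is a description of these letters and not evidence of binding.

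BCL2, the founding anti-apoptotic member, was the one listed member past 1.5-fold. It had 21.9 FPKM in Control (95% interval 21.3 to 22.5, from 4483 fragments) against 11.9 in AG (11.4 to 12.4, from 2221). AG was the lower library and the intervals did not overlap. The ratio was 0.542 (0.514 to 0.570) and the log2 ratio was -0.83. Of 5528 expressed genes 3.33% were at least 1.5-fold lower in AG and 3.60% were at least 1.5-fold higher, against 1 and 0 of the 7 expressed members. Of all expressed genes, 85 (1.54%) had a lower log2 ratio than BCL2. Among 2890 protein-coding genes whose mean reached 5 FPKM, 7 had a lower one (0.242%) and 25 were at least 1.5-fold lower. BCL2 was thus in the outer part of the distribution among well-expressed genes, as the plot of all expressed genes shows.

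**Figure D1:**
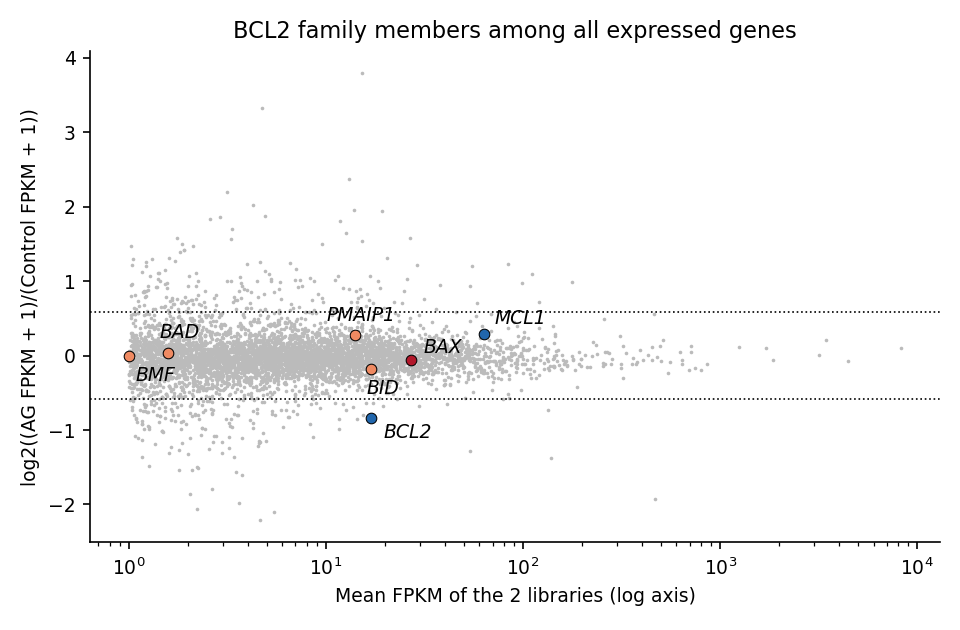
Each grey point is 1 of 5528 expressed genes, by its mean FPKM over the 2 libraries (log axis) and its log2 ratio of AG to Control with a pseudocount of 1 FPKM, and the dotted lines mark 1.5-fold. The 7 labelled members are blue (anti-apoptotic), red (pore-forming) and orange (BH3-only), and BCL2 at -0.83 is the only one outside the lines.

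MCL1, the other anti-apoptotic member with a value in both libraries and a short-lived protein, differed the other way. It had 57.1 FPKM in Control (55.0 to 59.2) against 69.7 in AG (67.3 to 72.1). AG was the higher library, without overlap of the intervals. The ratio was 1.22 (1.16 to 1.28) and the log2 ratio was 0.28, within 1.5-fold. The difference in level between the libraries was -10.03 FPKM for BCL2 and 12.6 FPKM for MCL1. Which of these is the larger in size depends on the gene lengths behind FPKM, as the values per longest transcript given below show. Gene lengths of 3111 and 6222 bases both gave whole fragment numbers for MCL1, and the intervals use the shorter length, which gives the wider ones. BCL2A1, a guardian of mature haematopoietic cells, had 0.609 FPKM in AG, about 9.85 fragments at its GENCODE 29 length, and no value in Control, so no comparison was made.

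The pore former BAX had nearly the same level in both libraries. It had 27.7 FPKM in Control (26.1 to 29.3) against 26.6 in AG (24.98 to 28.3), and the intervals overlapped. The ratio was 0.961 (0.883 to 1.05). Its partner BAK1 was not analysed here, so the pore-forming side is described by BAX alone.

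The BH3-only members with values in both libraries were all within 1.5-fold. PMAIP1, which encodes NOXA, a protein that binds MCL1, had 12.7 FPKM in Control (11.5 to 13.9) against 15.5 in AG (14.2 to 16.9), a ratio of 1.22 (1.07 to 1.39). AG was higher and the intervals of the levels did not overlap. BID, which links death receptors to mitochondria once it is cleaved, had 18.0 FPKM (17.0 to 19.0) and 15.8 (14.8 to 16.8), a ratio of 0.879 (0.809 to 0.954). Control was higher, again without overlap.

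The remaining BH3-only genes were low. BAD, which binds BCL2 and BCL2L1 when it is not phosphorylated, had 1.55 FPKM (1.12 to 2.09) and 1.62 (1.16 to 2.19) from 43 and 41 fragments. Its ratio of 1.04 had an interval of 0.663 to 1.64, so at this depth counting error alone did not exclude a difference of 1.5-fold either way. BMF, a BH3-only protein tied to the cytoskeleton, had 1.01 FPKM (0.808 to 1.24) and 1.00 (0.795 to 1.24), a ratio of 0.995 (0.727 to 1.36), and its mean was just above the limit for expressed genes. BBC3, which encodes PUMA, a p53 target, had 0.740 FPKM in AG, about 34.9 fragments at its GENCODE 29 length, and no value in Control. In GENCODE 29, 404 bases of BAD exons (23.7%) lie under exons of GPR137 on the other strand, at 2.97 and 2.56 FPKM, and 461 bases of BMF exons (8.5%) under BMF-AS1. The sources used here do not state the strand setting of the counting, so these 2 genes are uncertain.

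**Figure D2:**
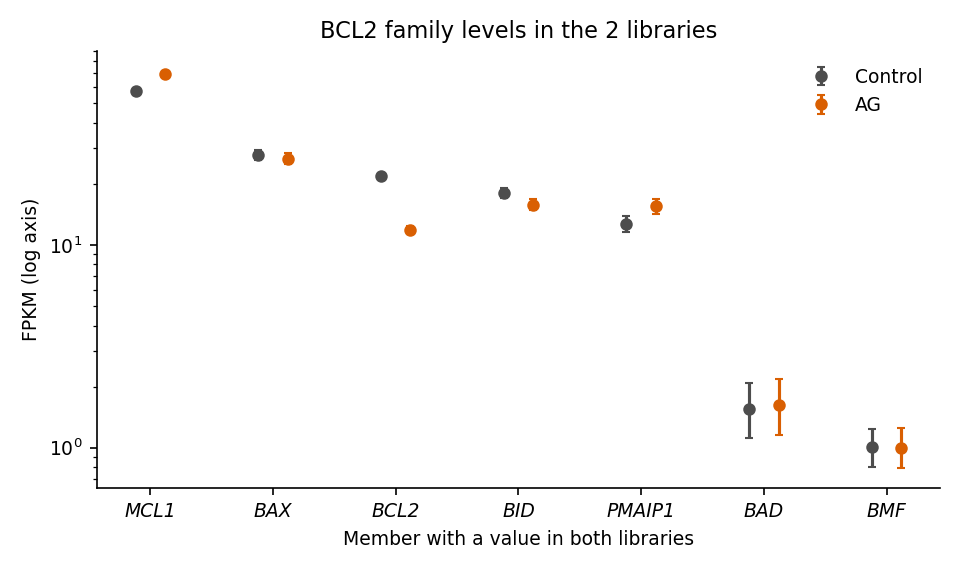
FPKM (log axis) of the 7 members with a value in both libraries, in Control (grey) and AG (orange), ordered by the Control level, with bars for the exact 95% Poisson interval of counting error. BCL2 is at 21.9 and 11.9 while BAX is at 27.7 and 26.6.

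The order of the FPKM levels placed BCL2 at rank 3 of 7 in Control and at rank 5 of 7 in AG. In Control the order was MCL1, BAX, BCL2, BID, PMAIP1, BAD and BMF, and neighbours from MCL1 to PMAIP1 had intervals that did not overlap, while those of BAD (1.12 to 2.09) and BMF (0.808 to 1.24) did. In AG it was MCL1, BAX, BID, PMAIP1, BCL2, BAD and BMF, where the intervals of BID (14.8 to 16.8) and PMAIP1 (14.2 to 16.9) overlapped. The order between genes depends on the gene length behind FPKM. The values implied a length of 12612 bases for BCL2, where its longest GENCODE 29 transcript has 7461, and 2587 for BAX, where the longest has 1358. Per base of the longest transcript BCL2 would stand at 37.0 and 20.04, BAX at 52.7 and 50.7, and MCL1 at 45.1 and 55.1 or at 90.3 and 110.3, by its length. BID would stand at 31.8 and 27.9 and PMAIP1 at 14.2 and 17.4, which places BCL2 above PMAIP1 in AG. Ratios of AG to Control do not depend on the length.

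Within the libraries, BCL2 stood lower against both BAX and MCL1 in AG than in Control. BCL2 stood at 0.791 of the BAX level in Control (0.742 to 0.844) and at 0.446 in AG (0.414 to 0.480). MCL1 stood at 2.61 times BCL2 in Control (2.49 to 2.73) and at 5.88 times in AG (5.57 to 6.21). BCL2 made up 27.7% of the summed FPKM of BCL2 and MCL1 in Control and 14.5% in AG. PMAIP1, a pair chosen after its values were seen, stood at 0.222 of MCL1 in both libraries (0.201 to 0.245 and 0.202 to 0.244). The intervals of these ratios propagate the Poisson counting error.

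In FPKM as deposited, the anti-apoptotic sum was above the pro-apoptotic sum in both libraries, and each sum was close between them. The anti-apoptotic sum, BCL2 and MCL1, was 78.9 FPKM in Control (counting SE 1.11) against 81.5 in AG (1.25). The pro-apoptotic sum, BAX, BID, PMAIP1, BAD and BMF, was 60.8 FPKM (1.15) and 60.5 (1.22). The balance of anti over pro was thus 1.30 in Control (1.24 to 1.36) and 1.35 in AG (1.28 to 1.42), and AG over Control was 1.04 (0.971 to 1.11), an interval that includes 1. A sum across genes depends on the gene lengths behind FPKM. Scaled to the longest transcript, the pro-apoptotic sum was 102.2 in Control and 99.5 in AG. The anti-apoptotic sum was then 82.1 in Control and 75.2 in AG with MCL1 at its shorter length. With MCL1 at its longer length it was 127.3 and 130.3. Per base of the longest transcript the balance was 0.804 in Control and 0.755 in AG with MCL1 at its shorter length, AG over Control 0.939 (0.880 to 1.003), and 1.25 and 1.31 with MCL1 at its longer length, AG over Control 1.05 (0.982 to 1.12).

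On the FPKM scale the balance also rested on which guardian was counted. With MCL1 alone as the guardian it was 0.938 in Control and 1.15 in AG, higher in AG by 1.23-fold (1.14 to 1.32). With BCL2 alone it was 0.360 and 0.196, lower in AG at 0.545-fold (0.506 to 0.587). When the mean log2(FPKM + 1) of each side was used in place of the sum, so that each gene weighed equally, the anti-apoptotic side stood 2.15 above the pro-apoptotic side in Control and 1.86 in AG, a difference of -0.29. Against the pore former BAX alone the balance was 2.85 and 3.07, and against the BH3-only genes alone 2.38 and 2.41. None of these sums includes BCL2L1, BAK1, BCL2L11 or BIK, and transcript levels do not give protein levels.

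**Figure D3:**
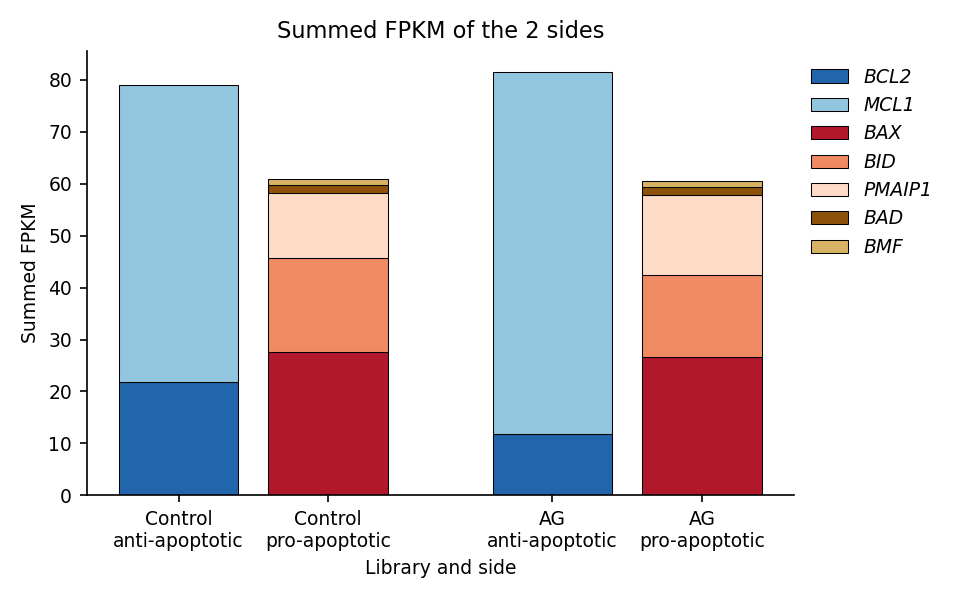
Summed FPKM of the anti-apoptotic and pro-apoptotic members with a value in both libraries, stacked by gene, for Control and AG. The anti-apoptotic bars reach 78.9 and 81.5 and the pro-apoptotic bars 60.8 and 60.5, while the BCL2 part shrinks from 27.7% to 14.5% of the anti-apoptotic bar.

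Of 15 further family genes, 7 had a value in both libraries, and the 6 expressed ones were all within 1.5-fold. That count is near the 3.60% higher and 3.33% lower of all expressed genes. Their median log2 ratio was -0.07, beside -0.03 over all expressed genes and -0.0037 over the 7 expressed members. BCL2L2, the guardian BCL-w, had 6.95 FPKM in Control against 7.02 in AG, a ratio of 1.01 (0.894 to 1.14), but shares 813 exon bases on the same strand with the readthrough gene BCL2L2-PABPN1, so its reads are uncertain. BCL2L12 had 24.6 and 23.1 FPKM and overlaps IRF3 on the other strand in 734 bases. BCL2L13, a mitochondrial member with a role in mitophagy, had 12.7 and 12.4.

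The more distant relatives also differed little. BNIP2 had 20.8 FPKM in Control against 19.1 in AG, a ratio of 0.919 (0.869 to 0.972). BNIP3, a mitophagy receptor induced by hypoxia, had 8.19 and 7.61, and BECN1, an autophagy protein that BCL2 binds, had 9.35 and 8.96. BECN1 overlaps PSME3 (46.4 and 51.1 FPKM) in 300 bases and CNTD1 in 795 bases, both on the other strand, so its reads are uncertain. BCL2L10, another guardian, came from 7 fragments (0.327 FPKM) in Control against 1 (0.0510 FPKM) in AG, and its ratio of 0.156 had an interval of 0.00346 to 1.22. BOK, a pore former, had 0.126 FPKM in AG only. BNIP1, BNIP3L, BCLAF1, BCL2L14, BCL2L15, HRK and MOAP1 were not analysed here.

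**Figure D4:**
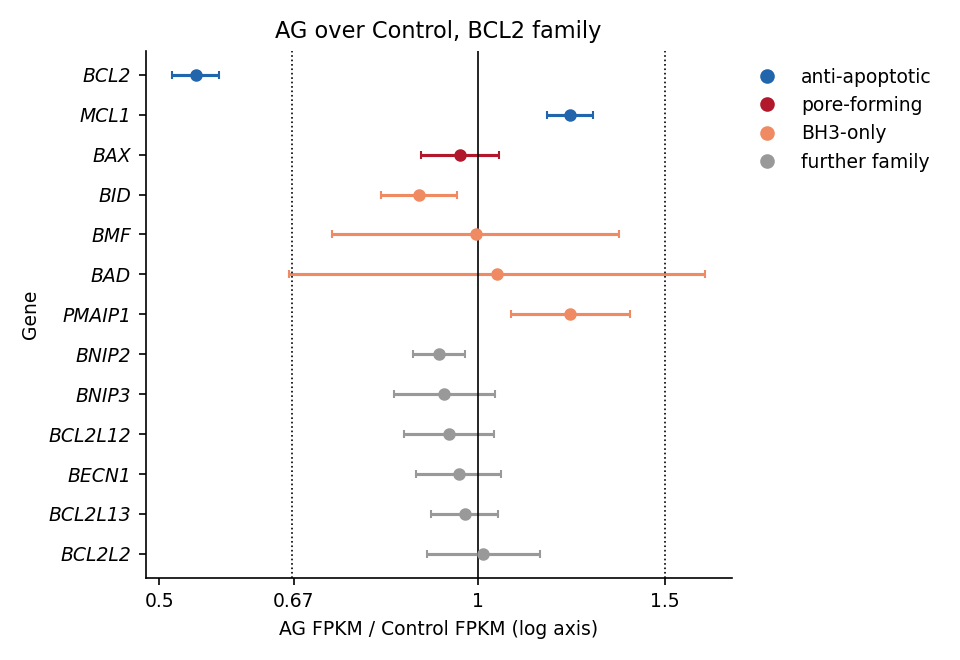
Ratio of AG to Control FPKM (log axis) for the 13 expressed genes of the family, coloured by role, with exact 95% Clopper-Pearson intervals of counting error. The solid line marks a ratio of 1 and the dotted lines 1.5-fold of the plain ratio, and BCL2 at 0.542 is the one gene beyond them, the others lying between 0.879 and 1.22.

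Few genes downstream of the mitochondrial step could be compared. Of 22 genes of the apoptosome, caspases and inhibitors of apoptosis 7 were expressed, 0 were higher and 0 lower, with a median log2 ratio of 0.02, beside 3.60% higher and 3.33% lower among all expressed genes, so a count of 0 in a list this short is near the background. XIAP, which inhibits caspases, had 5.50 FPKM in Control against 7.76 in AG, a ratio of 1.41 (1.29 to 1.55). VDAC2, an outer membrane channel that recruits BAK1 and BAX, had 46.8 and 49.5. CASP6, an executioner caspase, had 4.98 and 4.09, and BIRC5, which encodes survivin, had 46.5 and 41.7.

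The death receptor route, which joins the family at BID, had few members with values. Of its 12 genes 3 were expressed, all within 1.5-fold (median -0.03), a count near the 3.60% higher and 3.33% lower of all expressed genes. FADD, the adaptor of death receptors, had 6.06 FPKM in Control against 7.53 in AG. TNFRSF10B, a receptor of TRAIL, had 5.24 and 5.12. TNFSF10, which encodes TRAIL, had 4.24 and 2.86, a ratio of 0.673 (0.544 to 0.831) and a log2 ratio of -0.44.

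Among transcription factors known to act on family genes, 10 of 18 were expressed, 1 was higher, 1 lower and 8 within 1.5-fold (median -0.03), beside the same 3.60% and 3.33% of all expressed genes. CEBPB, a myeloid and stress factor, was higher, with 4.25 FPKM in Control against 9.63 in AG, a ratio of 2.26 (1.82 to 2.82). TP73, a relative of p53, was lower, with 7.25 and 3.74, a ratio of 0.516 (0.455 to 0.584). MYB, a factor of progenitor cells known to activate BCL2, had 99.2 and 69.3, a ratio of 0.699 (0.675 to 0.722), which is within 1.5-fold. DDIT3, a stress factor, had 5.23 and 6.28. A link between any of these and the BCL2 level was not tested.

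Genes that act on the stability or location of the proteins, and the p53 targets outside the family, held no member past 1.5-fold. Among all expressed genes 3.60% were higher and 3.33% lower, so counts of 0 in lists this short are near the background. Of 20 stability and location genes 13 were expressed (median 0.03). HUWE1, a ubiquitin ligase of MCL1, had 31.8 FPKM in Control against 32.5 in AG, and USP9X, which removes ubiquitin from MCL1, had 11.2 and 11.8. These were chosen after their values were seen, for their known action on MCL1. BAG3, a co-chaperone, stood highest with 12.9 and 17.2, and BTRC, a ubiquitin ligase subunit, was next with 2.30 and 2.71. BAG6 and TPT1 stood lowest, with 46.9 and 42.0 and with 66.2 and 62.1. Of 16 p53 targets 6 were expressed, with a median log2 ratio of -0.12. Of these FDXR was lowest at 4.12 and 3.14 FPKM and DDB2 next at 6.09 and 5.23, while AEN was highest at 10.3 and 10.6 and TNFRSF10B, given above, was next.

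The expressed genes around BCL2 are given as a description of its region. In GRCh38 coordinates of GENCODE 29, BCL2 (ENSG00000171791) spans 63123346 to 63320128 on the minus strand of chromosome 18. Of the genes within 2 Mb with a value in both libraries, 5 others were expressed and 0 of them passed 1.5-fold, with ratios from 0.774 to 1.15, a count near the 3.60% higher and 3.33% lower of all expressed genes. VPS4B, an endosomal sorting ATPase that starts 102.4 kb away, had 22.3 FPKM in Control against 20.4 in AG, a ratio of 0.915 (0.849 to 0.985). SERPINB8, a protease inhibitor 649.8 kb away, had 28.5 and 22.0, a ratio of 0.774 (0.729 to 0.821). On the other side ZCCHC2 had 3.02 and 3.06, RELCH 6.81 and 7.86, and PIGN 2.57 and 2.57. PMAIP1 lies on the same chromosome, outside this window.

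**Figure D5:**
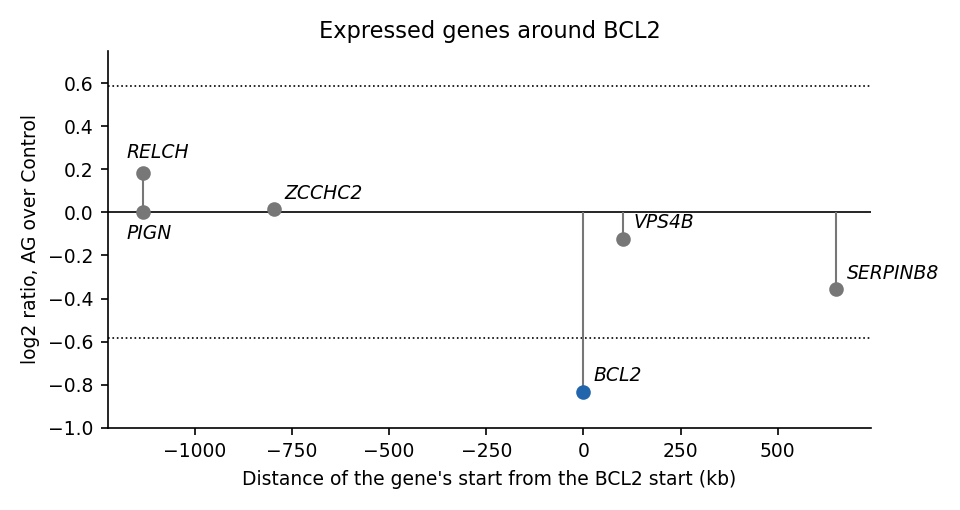
Log2 ratio of AG to Control (pseudocount 1 FPKM) of the 6 expressed genes within 2 Mb of BCL2, by the distance of their start from the BCL2 start in kb. BCL2 at -0.83 lies beyond the dotted 1.5-fold line, and the 5 other genes lie inside both lines.

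The other members with values lie on several chromosomes, in the same annotation. MCL1 (ENSG00000143384) spans 150574551 to 150579738 on the minus strand of chromosome 1, BAX (ENSG00000087088) 48954815 to 48961798 on the plus strand of chromosome 19 and PMAIP1 (ENSG00000141682) 59899948 to 59904306 on the plus strand of chromosome 18. On minus strands, BID (ENSG00000015475) spans 17734138 to 17774770 of chromosome 22, BAD (ENSG00000002330) 64269830 to 64284704 of chromosome 11 and BMF (ENSG00000104081) 40087890 to 40108892 of chromosome 15. All 7 are protein-coding genes, and each value covers the whole gene, so splice forms such as those of MCL1 and BAX are not separated.

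Of well-expressed protein-coding genes, the 5 with a log2 ratio closest to that of BCL2 were INKA1, SLC39A10, TP73, NUDT7 and NAPRT. INKA1, an inhibitor of a PAK kinase, had 18.8 FPKM in Control against 9.97 in AG, 0.02 below BCL2 in log2 ratio. SLC39A10, a zinc transporter, had 19.8 and 10.9, 0.03 above it. TP73 was 0.03 above, and NUDT7 (8.80 and 4.85) and NAPRT (11.2 and 5.43) were 0.09 above and 0.09 below. Likeness here is a single difference between 2 libraries and holds no more than that.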

How the data were processed

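The deposited files hold FPKM per gene, made by the authors, 1 file per library, with Ensembl identifiers. Per the submitters' processing notes the tools were Trimmomatic, HISAT2, Cufflinks and HTSeq on build hg38, whose versions and order are not stated. Per the labels' protocols, the extraction used Trizol and the libraries a TruSeq Stranded mRNA kit. The sources used here state no annotation release, strand setting or filter. FPKM is relative to a library total, so large changes in abundant genes shift the others. The files list no zeros, so a gene without a value was neither set to 0 nor compared.

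Symbols, coordinates and exon lengths came from GENCODE 29, which held 97.1% of the identifiers. Library totals were read from single-transcript genes, 88.4% and 88.1% of which gave fragment numbers within 0.01 of whole. Fragment pairs were taken at the integer length nearest the exon union, up to 1.5 times the union or the longest transcript, at which both numbers were within 0.0005 of whole. No count model was fitted. The steps were tested on simulated data in which each gene with a recovered pair had its GENCODE 29 exon-union length. Implied lengths off the union, as for BCL2 and MCL1, were not tried there. Alternatives covered pseudocount, filter, scaling, threshold and the make-up of the balance. Members and lists were chosen with earlier results of these data known. Named were all family genes, the 2 highest and 2 lowest expressed genes of each pathway list by log2 ratio and any past 1.5-fold, the expressed genes within 2 Mb of BCL2, the 5 protein-coding genes of mean at least 5 FPKM nearest BCL2, and markers; exceptions are stated, and some list genes are not reported here. Python 3.11.15, numpy 2.4.6, pandas 2.3.3, scipy 1.17.1 and matplotlib 3.10.9 were used.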

Additional observations from a re-analysis of the deposited data

Results flagged for a closer look

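The family genes BCL2A1, BBC3 and BOK had a level in AG above the limit of 3 fragments but no value in Control, and so stood outside the comparison. BCL2A1 had 0.609 FPKM, BBC3 had 0.740 and BOK had 0.126. A missing value was not read as 0, and whether these genes differed between the libraries was not tested.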

How the results depend on the processing

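The log2 ratio of BCL2 was below 0 and past 1.5-fold under every pseudocount and scaling tried, and moved beyond its counting interval only with a pseudocount of 5 FPKM (-0.67). No member passed 2-fold (0 of 7). Genes at least 1.5-fold higher and lower numbered 199 and 184, against 303 and 328 with a pseudocount of 0.1 FPKM, 64 and 36 with one of 5 FPKM, 76 and 41 where the mean had to reach 5 FPKM, and 65 and 49 at 2-fold. Scaling by the median of ratios multiplied AG values by 1.03, which took BCL2 to -0.80 and BMF from -0.0037 to 0.0143. The log2 ratios of the 6 other members stayed within their counting intervals under each pseudocount and scaling. Pathway list medians, near 0 throughout, changed sign in 3 of 29 alternatives.

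The balance in Control and AG was 0.938 and 1.15 without BCL2 (log2 of AG over Control 0.30), 0.360 and 0.196 without MCL1 (-0.88) and 1.42 and 1.47 (1.417 and 1.465) with BCL2L2 and BCL2L10 added to the anti-apoptotic side (BOK and HRK, planned for the other side, had no value in both libraries and did not enter). Chosen after seeing the data, it was 0.804 and 0.755 (-0.0901) per longest transcript with MCL1 at its shorter length, 1.25 and 1.31 (0.07) with MCL1 at its longer length, 2.85 and 3.07 against BAX alone, and 2.38 and 2.41 against BH3-only genes. By mean log2 values the change was -0.29. The direction of the difference in balance differed between these choices.

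No paired analysis was possible because each group has 1 library. Leave-one-out fits were not run for the same reason.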
